A study of Equus caballus with 18 samples.

Results

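Genes whose products are made outside muscle were followed in biopsies of the superficial gluteal muscle of the horse. They were 4 in number: TSHB, which encodes the β-subunit of thyroid-stimulating hormone, CSN3, which encodes the milk protein κ-casein, AMBN, which encodes the enamel protein ameloblastin, and GCG, which encodes the precursor of glucagon. The members are all probesets of the array that the platform annotation names with exactly 1 of these symbols. There were 4 such probesets, 1 for each gene, of 30559 in all (probesets 15092066 for TSHB, 15071236 for CSN3, 15071213 for AMBN and 15009541 for GCG). They were picked from the genes of other tissues because they rose on day 28 of the escalating dose. Their values in that comparison are therefore a description and carry no test. The low dose comparison was not used to pick them and was tested.

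The data came from 18 arrays of the EquGene-1.0-st type, 1 for each biopsy, with expression values given as log2. All horses were adult, exercised Thoroughbreds (mares or geldings), and each served as its own control. In the low dose regimen, 5 horses (called L1 to L5) received the β2-adrenergic agonist clenbuterol by mouth at 0.8 μg/kg 2 times a day for 30 days, and the arrays come from baseline, 1 day before the first dose, and from day 14. In the escalating regimen, 4 other horses (E1 to E4) received 0.8, 1.6 and 2.4 μg/kg 2 times a day for 3 days each and then 3.2 μg/kg for 21 days, and the arrays come from baseline and from day 28. Neither regimen had horses without the drug on the later day, so an effect of the drug and an effect of time cannot be told apart.

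Thyroid-stimulating hormone is a pair of chains, of which the α-subunit is shared with the gonadotropins and the β-subunit gives the hormone its identity. It is made by the thyrotrophs of the anterior pituitary, under the drive of thyrotropin-releasing hormone and the transcription factor POU1F1. κ-casein sits on the surface of the casein micelle of milk and keeps it in suspension. Ameloblastin is laid down by ameloblasts, the cells that build tooth enamel. The glucagon precursor is cut into glucagon in the α-cells of the pancreatic islets and into glucagon-like peptides in the L-cells of the gut. In a biopsy the number of cells that hold a transcript and the amount in each cell cannot be told apart.

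The arrays carried the profile of skeletal muscle. All 12 muscle genes listed as markers were measured, and their mean value on an array lay between 8.09 and 10.7 in the low dose regimen and between 10.5 and 11.1 in the escalating regimen. The low dose and escalating arrays had different scales, with array medians of 2.42 to 2.74 at the low dose, 4.06 to 4.22 at the escalating baseline and 4.45 to 4.5 on day 28. The spread over the probesets of an array also differed, with an SD of 1.71 to 1.80 at the escalating baseline and 1.49 to 1.53 on day 28. At the low dose the SD was 1.2 to 1.41 in L4 and L5 and 1.67 to 1.75 in the other horses, so low dose results are given with and without L4 and L5. Changes were therefore measured within each regimen with limma, with horse as a block, and p-values were adjusted over all probesets (Benjamini-Hochberg). The word called is used for an adjusted p under 0.05.

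On day 28 of the escalating dose all 4 genes lay above their baseline in every horse, and in none of them did the baseline and day 28 values overlap. Of all 30559 probesets, 31% were higher in every horse, 24.1% were higher with no overlap between the groups, and 24.5% were called higher (44.7% were called in either direction). These shares stand beside the 4 genes for scale only, because the genes were chosen on this comparison. The log2 changes were between 1.69 and 2.32, which are 3.23-fold to 4.98-fold increases.

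TSHB was at 3.04, 2.41, 2.63 and 2.68 at baseline in E1, E2, E3 and E4 and at 5.21, 4.59, 5.21 and 5.02 on day 28. The horse with the lowest value at baseline, E2, also had the lowest value on day 28, and the rise was of nearly one size in the 4 horses (2.17 to 2.58). The mean went from 2.69 ± 0.261 (SD, n = 4) to 5.01 ± 0.292 (SD, n = 4), a log2 change of 2.32 (standard error 0.145, 95% interval 1.97 to 2.66). Among the 4 genes this was the largest change.

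CSN3 was at 4.52, 3.95, 4.45 and 4.69 at baseline and at 6.42, 6.78, 6.78 and 6.38 on day 28. The horses differed most in this gene, because E2 was lowest at baseline and shared the highest value on day 28, so its rise was 2.83 against 1.69 in E4. The mean went from 4.40 ± 0.318 (SD, n = 4) to 6.59 ± 0.22 (SD, n = 4), a log2 change of 2.19 (standard error 0.211, 95% interval 1.69 to 2.69).

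AMBN was at 4.56, 4.42, 4.53 and 4.92 at baseline and at 7.06, 6.65, 6.33 and 6.99 on day 28. E1 rose most, by 2.50, and E3 least, by 1.80. The mean went from 4.61 ± 0.217 (SD, n = 4) to 6.76 ± 0.337 (SD, n = 4), a log2 change of 2.15 (standard error 0.162, 95% interval 1.77 to 2.53).

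GCG was at 3.53, 2.76, 3.3 and 3.33 at baseline and at 5.15, 4.64, 5.11 and 4.78 on day 28. As with TSHB, E2 was the lowest at both times, and E1 was the highest. The mean went from 3.23 ± 0.33 (SD, n = 4) to 4.92 ± 0.25 (SD, n = 4), a log2 change of 1.69 (standard error 0.146, 95% interval 1.35 to 2.03), the smallest of the 4.

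**Figure D1:**
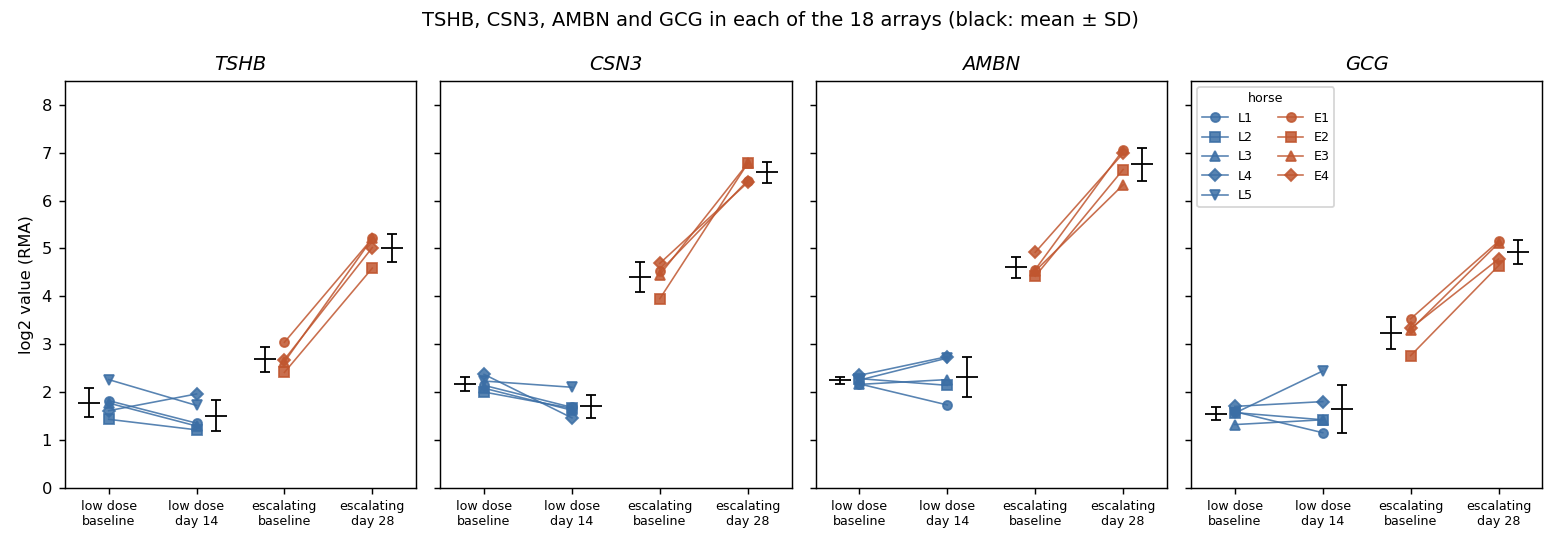
Log2 value (vertical axis) of TSHB, CSN3, AMBN and GCG in each of the 18 arrays, by group (horizontal axis), with a line joining the 2 arrays of a horse and black bars for the mean and SD of a group. In the escalating regimen every line climbs and the groups are apart, with day 28 means of 5.01, 6.59, 6.76 and 4.92. The low dose lines run both ways, all 5 down for CSN3 and 4 of 5 down for TSHB, with 3 of 5 up for AMBN and GCG. The steepest low dose line is CSN3 in L4 (-0.91), and the steepest upward is GCG in L5 (0.88). The 2 regimens are on different scales.

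The rule that chose the genes did not use the low dose comparison, although earlier results of these data were known. On day 14 limma called none of the 4, and it called 0 of 30558 tested probesets (0%), while 2666 (8.72%) had an unadjusted p under 0.05. The count was 2 with a paired test that pools no variance, 5 in a fit of all 18 arrays, and 178 without L4 and L5, none of them one of the 4 genes.

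CSN3 was the only one of the 4 genes that moved the same way in all 5 horses at the low dose, and it lay lower. It was at 2.14, 2, 2.08, 2.37 and 2.23 at baseline in L1 to L5 and at 1.68, 1.66, 1.62, 1.46 and 2.1 on day 14. The 2 groups overlapped, with the day 14 value of L5 (2.1) inside the baseline range. The log2 change was -0.46 (standard error 0.162, 95% interval -0.84 to -0.08), with an adjusted p of 0.515 from limma (unadjusted 0.0233), lower in 5 of 5 horses. An exact two-sided sign-flip permutation test gave p = 0.0625, the smallest that 5 horses allow. Of all tested probesets, 4.75% were lower in every horse. Without L4 and L5 the change was -0.42 (adjusted p = 0.25 from limma).

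TSHB was at 1.82, 1.43, 1.77, 1.61 and 2.26 at baseline and at 1.35, 1.21, 1.29, 1.96 and 1.72 on day 14. It was lower in 4 of 5 horses, L4 being the exception, and the groups overlapped. The log2 change was -0.27 (standard error 0.179, 95% interval -0.69 to 0.15, adjusted p = 0.68 from limma). Without L4 and L5 the change was -0.39 (adjusted p = 0.29 from limma).

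AMBN was at 2.17, 2.28, 2.16, 2.35 and 2.25 at baseline and at 1.73, 2.14, 2.26, 2.74 and 2.71 on day 14. The baseline values of this gene lay close together, from 2.16 to 2.35 (SD 0.0792), and spread out on day 14 (SD 0.422), with L4 and L5 at the top and L1 at the bottom. The log2 change was 0.07 (standard error 0.18, 95% interval -0.35 to 0.49, adjusted p = 0.93 from limma), and without L4 and L5 it was -0.16.

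GCG was at 1.59, 1.57, 1.32, 1.7 and 1.56 at baseline and at 1.15, 1.42, 1.42, 1.8 and 2.44 on day 14. L5 rose by 0.88 and the other horses moved by between -0.44 and 0.10. The log2 change was 0.10 (standard error 0.208, 95% interval -0.39 to 0.58, adjusted p = 0.918 from limma), and without L4 and L5 it was -0.16. For each of the 4 genes the upper end of the low dose interval (0.15 for TSHB, -0.08 for CSN3, 0.49 for AMBN and 0.58 for GCG) lay below the lower end of its escalating dose interval. The second of these intervals comes from the comparison that chose the genes, so the difference between the regimens was not tested.

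The position of a probeset among all probesets of its own array does not depend on the scale of that array. It is not a measure of abundance, because probesets differ in how well they bind. On this measure TSHB lay above 9.4% to 20.3% of the probesets at the escalating baseline and above 52.7% to 70.6% on day 28. CSN3 moved from 45.9% to 60.5% up to 90.1% to 93.9%, and AMBN from 56.3% to 65.3% up to 90.6% to 94.6%. GCG moved from 16.9% to 32.5% up to 54.2% to 68.8%. TSHB and GCG thus went from the lower part of the array to above its middle, and CSN3 and AMBN from about the middle to near the top.

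In the low dose regimen the same positions were 12.5% to 35% at baseline and 5.56% to 24.3% on day 14 for TSHB, and 34.1% to 41.4% and 6.57% to 26.5% for CSN3. The CSN3 ranges did not overlap on this measure, for which the share over all probesets is not given here. AMBN went from 34.7% to 42.9% at baseline to 28.6% to 52.1% on day 14, and GCG from 7.12% to 20% at baseline to 3.27% to 38.1% on day 14. At baseline, before any drug, AMBN and CSN3 stood higher on every array of the escalating cohort than on any array of the low dose cohort, whereas the ranges of TSHB and GCG overlapped between the cohorts. The share of all probesets that part the cohorts in this way is likewise not given here. The separation is therefore not shown to be particular to AMBN and CSN3. The escalating baseline belongs to the comparison that chose the genes, so the difference between the cohorts was not tested.

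**Figure D2:**
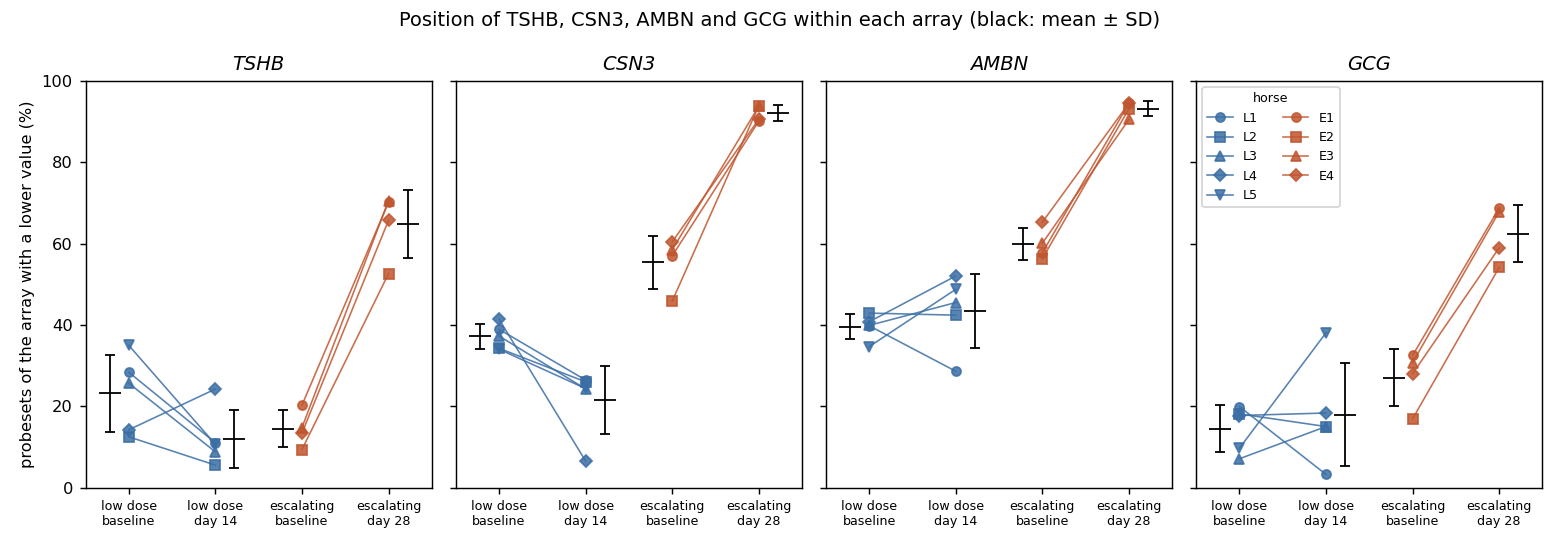
Percent of the probesets of the same array with a lower value (vertical axis) for TSHB, CSN3, AMBN and GCG in each of the 18 arrays, by group, with lines joining the arrays of a horse and black bars for the mean and SD. CSN3 and AMBN stand above 90.1% or more of the probesets in all 4 arrays of day 28, and TSHB and GCG above 52.7% or more.

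At the escalating dose the median change depended on the baseline value. Each gene was therefore set beside all other probesets whose baseline mean lay within 0.25 log2 of its own. Around TSHB there were 3313 such probesets, with a median change of 0.35 and 38.2% called higher, and 97.6% of them had a smaller change than TSHB. Around GCG there were 3841, with a median change of 0.44 and 44.8% called higher, and 88.1% had a smaller change than GCG. The upper 10% of these probesets had changes of 1.80 or more, above the 1.69 of GCG itself.

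Around CSN3 there were 3346 probesets, with a median change of 0.15 and 25.3% called higher, and 97% had a smaller change. Around AMBN there were 3205, with a median of 0.09 and 22% called higher, and 97.3% had a smaller change. The 4 genes lay 1.97 (TSHB), 2.04 (CSN3), 2.06 (AMBN) and 1.25 (GCG) above the median of probesets of like baseline value. These distances, the shares and the ranks at the escalating dose are a description only, because the genes were chosen for their rise there. Over the whole array, 751 probesets had a larger change than TSHB, 887 than CSN3, 932 than AMBN and 1730 than GCG, which is 2.46% to 5.66% of all. On day 14 of the low dose the share of like probesets with a smaller change was 7.55% for TSHB, 4.7% for CSN3, 67.3% for AMBN and 60.9% for GCG.

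**Figure D3:**
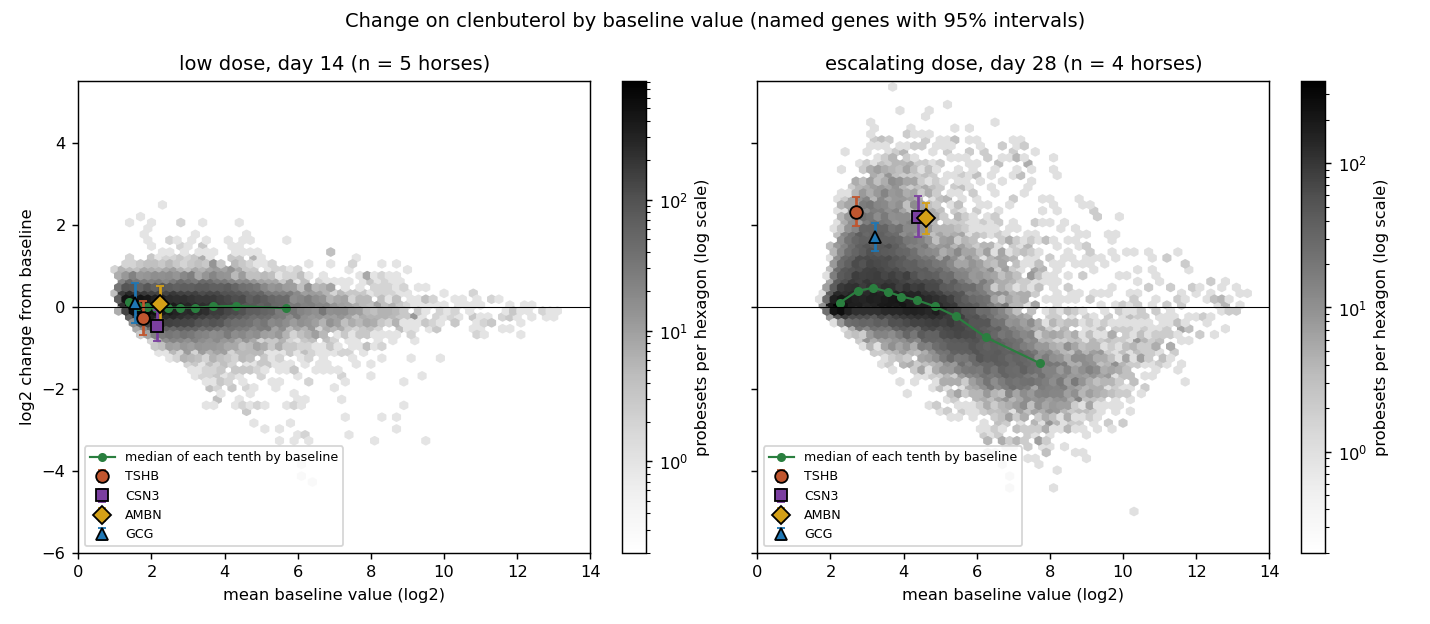
Log2 change from baseline (vertical axis) against mean baseline log2 value (horizontal axis) for all probesets, shaded by their number on a log scale, in the low dose (left, n = 5 horses) and the escalating regimen (right, n = 4 horses). Coloured symbols are the 4 genes with 95% intervals and the green line joins the medians of 10 equal sets of probesets ordered by baseline. At the escalating dose the median is at 0.46 in the third set and at -1.38 in the brightest set, and the 4 genes lie above the line, inside the upper part of the cloud.

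Genes related to each of the 4 genes were read from 4 lists with 55 genes in all, of which 49 were measured. The lists also hold receptors of other tissues, such as TSHR, and enzymes, such as PCSK1. The lists and the named partners were chosen with earlier results of these data known. Their escalating dose p-values come from the comparison that chose the 4 genes. They describe the listed genes and are no independent check on the rise of the 4. On day 28 of the escalating dose 28 of the 49 were called higher, 2 lower and 19 were not called, with a median change of 0.68. Over all probesets 24.5% were called higher and 20.2% lower, with a median of 0.08. Most of the listed genes were dim, however, with baseline means from 2.35 to 6.02, and the share called higher depended on the baseline value. With all probesets ordered by baseline and divided into 10 equal sets, the second to the sixth sets (baseline 2.50 to 4.60) had 25.4% to 46% called higher, 0.622% to 6.55% called lower and median changes of 0.16 to 0.46. The dimmest set had 16% called higher and a median change of 0.10. At the low dose 0 of the 49 were called, 0 had an unadjusted p under 0.05, and the median was -0.12.

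Of 11 measured genes of the pituitary list, 7 were called higher at the escalating dose and 0 lower, with a median change of 0.89. CGA, the α-subunit that pairs with TSHB, rose from 4.68 ± 0.295 to 6.58 ± 0.273 (SD, n = 4), a log2 change of 1.90 (adjusted p = 0.000102 from limma). POU1F1, the pituitary factor that drives the TSHB gene, rose by 1.77 (adjusted p = 0.000267 from limma), and TRHR, the receptor of thyrotropin-releasing hormone on thyrotrophs, by 1.70 (adjusted p = 0.000252 from limma). TSHR, the receptor for the hormone on thyroid cells, rose by 0.95 (adjusted p = 0.00497 from limma). Each was higher in 4 of 4 horses. The pituitary list does not move as one on these arrays, since the growth hormone gene GH1 was at 0.20 and the corticotropin precursor POMC at -0.20, neither of them called and both named after their values were seen.

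Of 10 measured milk genes, 6 were called higher and 1 lower, with a median change of 0.66. The casein CSN1S1 rose by 1.61 and the β-casein CSN2 by 1.09 (limma, adjusted p 0.000258 and 0.000996), and LALBA, the α-lactalbumin that makes lactose synthesis possible, by 1.52 (adjusted p = 8e-04 from limma). PRLR, the prolactin receptor, rose by 0.54 (adjusted p = 0.0426 from limma), a call that was lost in 9 of 12 alternatives, among them 3 other scalings (0.15 to 0.22), the paired test, the fit of all 18 arrays (both 0.54) and the fits without E1 (0.48), E3 (0.52) or E4 (0.45). The gene called lower was MFGE8, named after its value was seen, which encodes a milk fat globule protein that many cells secrete, at -1.28 (adjusted p = 0.000637 from limma). Lactoferrin (LTF) and lactoperoxidase (LPO) were at 0.08 and 0.13, were not called and were likewise named after their values were seen.

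The enamel and tooth list had the largest share of calls, with 9 of 11 measured genes higher, 0 lower and a median change of 1.08. ODAM and AMTN, proteins of the late ameloblast, rose by 1.96 and 1.58 (limma, adjusted p 0.000104 and 0.000255). ENAM, the enamelin of the enamel matrix, rose from 4.28 ± 0.237 to 6.10 ± 0.219 (SD, n = 4), a log2 change of 1.82 (adjusted p = 0.000204 from limma). AMELX, the main protein of young enamel, rose by 0.93 and MMP20, the protease that cuts it, by 1.19 (limma, adjusted p 0.00639 and 0.00495). In the paired test that pools no variance these last 2 were not called (adjusted p 0.0655 and 0.074), nor was TSHR (0.0569). The 2 genes without a call, TUFT1 and FAM83H (named after their values were seen), have products that are found in many tissues besides the tooth, and were at -0.06 and 0.30.

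In mammals the casein genes and the genes of ODAM, AMTN, AMBN and ENAM lie in one cluster and descend from a common ancestor. CSN3 and AMBN both belong to it, and the 6 other genes of it on the lists (CSN1S1, CSN1S2, CSN2, ODAM, AMTN and ENAM) were all measured. All 6 were called higher at the escalating dose, by 1.09 to 1.96, and 0 were called at the low dose (-0.33 to 0.25). Their baseline means were 2.35 to 4.28, and in the 6 sets of probesets that cover this range 16% to 46% were called higher. This grouping was made after the values were seen.

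Of 17 measured genes of the islet and gut list, 6 were called higher, 1 lower and 10 were not called, with a median change of 0.20. PCSK1, the convertase that cuts the glucagon precursor into glucagon-like peptides, rose by 0.89 (adjusted p = 0.0054 from limma). That call was lost in 3 alternatives, among them quantile normalization (0.51) and cyclic loess (0.49). PCSK2, the convertase that releases glucagon in α-cells, was at 0.18 and the receptors GCGR and GLP1R were at 0.20 and 0.08, none of them called, and under other scalings these 3 lay below 0. Insulin (INS) had no probeset that named it alone. The gene called lower, the gut hormone secretin (SCT, named after its value was seen), fell by 1.17 (adjusted p = 0.00342 from limma).

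**Figure D4:**
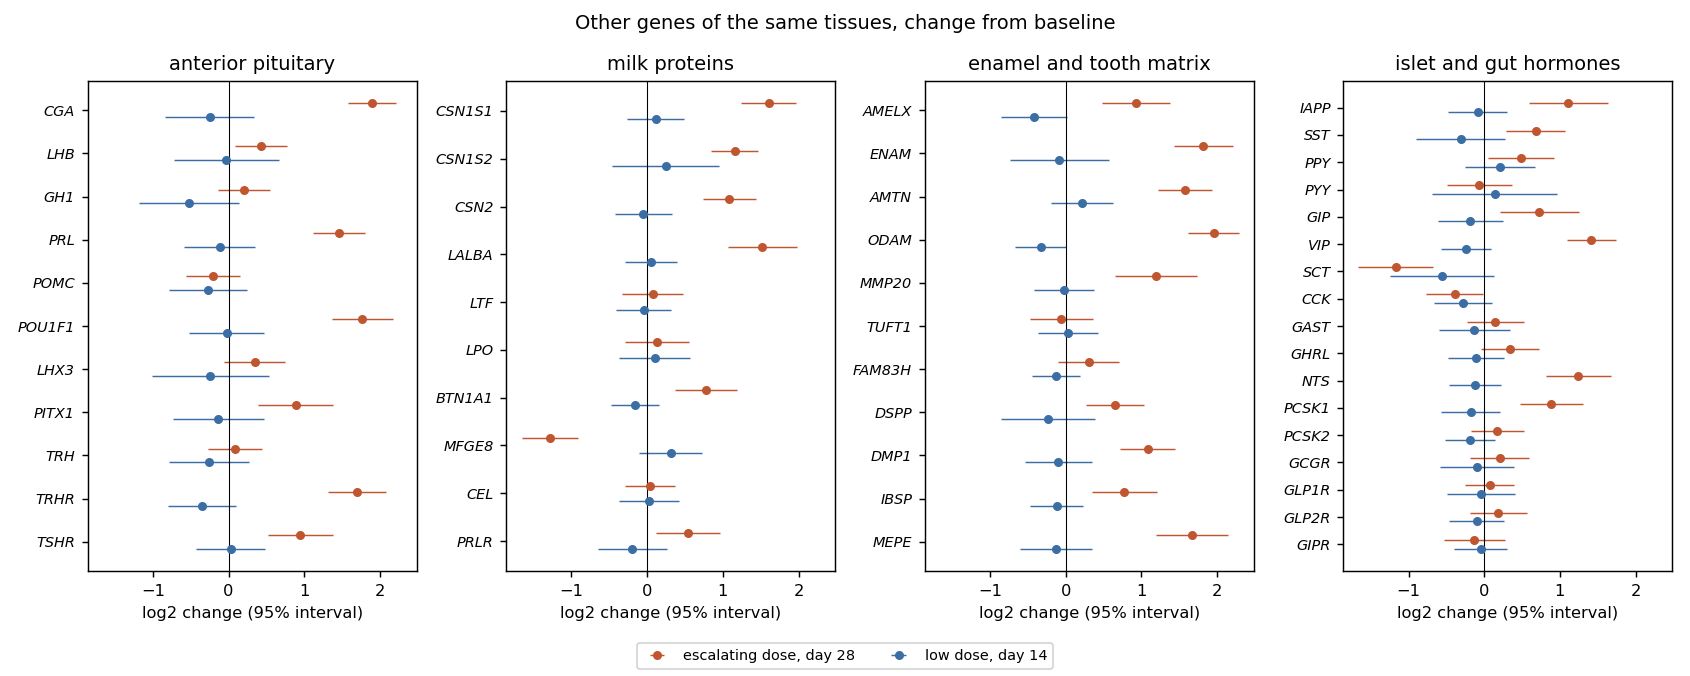
Log2 change from baseline (horizontal axis, with 95% intervals from limma) of the 49 measured genes of the pituitary, milk, enamel and islet or gut lists on day 28 of the escalating dose (n = 4 horses) and day 14 of the low dose (n = 5 horses). The escalating dose points lie to the right of 0 for most genes of the enamel list, with ODAM at 1.96, and near 0 for the receptors GCGR and GLP1R, and the low dose interval of every gene spans 0.

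Markers of other cells moved on the same arrays. Of 10 measured leukocyte markers, 4 were called higher at the escalating dose and 0 lower, with a mean over the list of 4.19 to 4.53 at baseline and 4.81 to 4.89 on day 28, and lysozyme (LYZ) rose by 2.17. Of 8 skin markers, 4 were called higher and 1 (KRT1, -2.29) lower, with a mean of 3.21 to 4.11 at baseline and 3.73 to 3.90 on day 28. The KRT1 call was lost in 6 alternatives, among them the fits without E1 (-1.63) or E4 (-1.66). At the low dose the mean of the skin markers was 2.36 to 4.83 at baseline and 1.86 to 2.51 on day 14. Their median change there was -1.40, and 0 of them were called. KRT1 was at -4.21 and KRT5 at -2.43 (limma, unadjusted p 0.0123 and 0.00518, adjusted p 0.491 and 0.462). KRT1 was nevertheless higher in 2 of 5 horses, and KRT5 in 0. Of 6 endothelial markers 4 were called lower, by 0.75 (VWF) to 2.78 (PECAM1) in size, and 0 higher. Of 6 adipocyte markers 2 were called lower (FABP4, -2.34, and LPL, -1.60) and 0 higher, and ADIPOQ was at -2.54 without a call. Of 5 red cell markers 2 were called higher (HBB, 0.78, and ALAS2, 0.83) and 0 lower. The endothelial, adipocyte and red cell genes were named after their values were seen. Of the 12 muscle genes 4 were called lower, 1 higher and 7 were not called. MB, for myoglobin, fell by 1.53, while muscle actin (ACTA1) and muscle creatine kinase (CKM) were at 0.15 and 0.03 and were not called. All 12 muscle genes lay in the brightest of the 10 baseline sets, where 81.7% of probesets were called lower and 6.35% higher. The sets covering the leukocyte, skin and red cell markers had 11.8% to 40.3%, 11.8% to 46% and 40.3% to 46% called higher. Those covering the endothelial and adipocyte markers had 14.2% to 81.7% and 3.47% to 81.7% called lower. The lists were not tested against these shares. No marker was listed at 0. The part of these markers, and of the narrower spread of the day 28 arrays, in the rise of the 4 genes was not tested.

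The 4 genes ran together over the 18 arrays once each was centred on its mean in each regimen, with Pearson r between 0.88 and 0.927 for their 6 pairs, a description that contains the rise that chose them. After centring in each of the 4 groups, r ranged from 0.0706 (CSN3 and AMBN) to 0.603 (AMBN and GCG). CSN3 and TSHB were also loosely tied then, at 0.151, whereas GCG kept values of 0.563 to 0.603 with each of the others. The arrays of a horse and the scale of an array are shared by these points, and no p is given.

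Among 16168 compared probesets with a single symbol, those most like each gene were ranked by r over the 18 arrays after centring in each regimen. For TSHB these were CRISPLD1 (0.986), the Rh-associated glycoprotein RHAG of red cells (0.982) and the olfactory receptor OR5P3 (0.978). For CSN3 they were the estrogen sulfotransferase SULT1E1 (0.978) and the olfactory receptors OR8G3H (0.977) and OR51P1 (0.971). For AMBN they were the microRNA gene MIR454 (0.984), the serpin SERPINB10 (0.98) and MCHR2, a receptor of melanin-concentrating hormone (0.973). For GCG they were the osteoclast factor TNFSF11 (0.981), the olfactory receptor OR56A3 (0.976) and the intestinal cadherin CDH17 (0.973).

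These 12 genes rose by 1.64 to 2.90 at the escalating dose and lay between -0.40 and 0.10 at the low dose. That pattern follows from how they were chosen, because r after centring in each regimen contains the rise of the escalating dose. After centring in each of the 4 groups, CRISPLD1 stayed first for TSHB (0.915), TNFSF11 for GCG (0.91), and SERPINB10, MIR454 and MCHR2 were the first 3 for AMBN (0.879, 0.862 and 0.844). The next genes were new for TSHB (CLECL1, 0.901, and SLFN11, 0.875) and for GCG (OR1L6P, 0.904, and OR2A14CP, 0.901). Their changes at the escalating dose were 1.59 (CLECL1), 1.18 (SLFN11), 2.11 (OR1L6P) and -0.27 (OR2A14CP). For CSN3 the first 3 were then other genes, the nuclear receptor NR5A2 (0.813), the GABA receptor subunit GABRA5 (0.802) and NDRG4 (0.799), whose changes at the escalating dose were 0.69, 0.43 and -0.22. The genes closest to CSN3 in its rise were thus not those closest to it within groups.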

How the data were processed

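The authors scanned 18 EquGene-1.0-st arrays and made log2 values by RMA from perfect-match probes in Affymetrix Expression Console, whose version is not given in the sources used here; the submitters' processing notes also name Transcriptome Analysis Console 3.0. The deposited log2 values of 30559 probesets were used as they are. The labels do not say which arrays were normalized together. One value was missing, in the baseline array of L4, and low dose fits used 30558 probesets. Symbols were those of GEO's platform annotation, which gives 16789 probesets a single symbol. A gene with several probesets was represented by the one with the highest mean over the 18 arrays.

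Each regimen was fitted in R 4.3.3 with limma 3.58.1 (lmFit and eBayes, two-sided), with horse as a block. The titles name the horse, so the arrays of a horse are a pair. The deviations of the 2 arrays of a horse from their group means correlated at 0.42 to 0.705 at the low dose and at -0.0223 to 0.124 in the escalating regimen. In L1, L3, L4, E3 and E4 an array of another horse correlated more closely, so the pairing rests on the titles. Calls used an adjusted p under 0.05. The 4 genes, the tissue lists, the marker lists and the named partners were chosen with earlier results of these data known. The text names the 4 genes, partners chosen for their role, the 3 genes most like each and a few markers, and otherwise says that a gene was named after its value was seen. Neighbouring genes, promoters and proteins were not analysed here. No 2 arrays were identical. The fits were tested on simulated data. Alternatives were 3 scalings, a filter that keeps the brighter 50% of probesets, trended and robust variances, no block, the methods' paired test, a joint fit over the 18 arrays, a window of 0.5 log2, and leaving out horses. Arrays give no counts, and their number limits the precision.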

Additional observations from a re-analysis of the deposited data

Results flagged for a closer look

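CSN3 was lower in 5 of 5 horses on day 14 of the low dose and higher in 4 of 4 horses on day 28 of the escalating dose. The low dose change of -0.46 was not called (limma, adjusted p = 0.515), and 4.75% of all probesets were lower in every horse there. The mean changes differed by 2.65 on the log2 scale. The difference was not tested, because the escalating dose comparison chose the gene. In 24 checks of single groups and of the changes per horse of the 4 genes, no horse stood apart from the others by Dixon's criterion, which chance passes in about 1 of 20 groups.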

How the results depend on the processing

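At the escalating dose the 4 genes stayed higher than baseline under every alternative run. With each array centred on its median the changes were 2.00 (TSHB), 1.83 (AMBN) and 1.37 (GCG), after quantile normalization 2.12 (TSHB) and 1.41 (GCG), and after cyclic loess 1.92 (TSHB), 2.58 (AMBN) and 1.32 (GCG). CSN3 moved by less than the spread between horses. With 1 horse left out they ranged from 2.23 to 2.37 (TSHB), 1.97 to 2.35 (CSN3), 2.03 to 2.27 (AMBN) and 1.63 to 1.77 (GCG). The distance above the median of probesets of like baseline value was 1.77 (TSHB), 2.60 (CSN3) and 2.68 (AMBN) after cyclic loess and 2.51 (AMBN) after quantile normalization. TSHB and GCG were not among the brighter 50% of probesets in the escalating regimen, nor any of the 4 at the low dose, so the filter gave no value there. Over all probesets the median change was 0.08 as deposited, -0.10 after quantile normalization, -0.24 after median centring and -0.02 after cyclic loess, and 54.9%, 44.2%, 33.1% and 54.4% of the calls were higher.

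At the low dose none of the 4 genes was called under any alternative, and the adjusted p of CSN3 ranged from 0.25 (without L4 and L5) to 1 (without the replicate block, where its change was -0.46). The changes turned negative for AMBN without L4 (-0.005), L5 (-0.0225) or both (-0.16) and for GCG without L5 (-0.10) or both L4 and L5 (-0.16). With 1 horse left out the ranges were -0.43 to -0.21 (TSHB), -0.54 to -0.35 (CSN3), -0.0225 to 0.20 (AMBN) and -0.10 to 0.23 (GCG). The count of called probesets was 2 with the paired test, 5 with all 18 arrays and 178 without L4 and L5. At the escalating dose the paired test called 8389 probesets against 13662, and 4 pituitary, 5 enamel and 2 islet or gut genes higher against 7, 9 and 6. Without the replicate block KRT1 was uncalled (adjusted p = 0.0546) and no other call of a named gene changed. PCSK2, GCGR and GLP1R were at -0.22, -0.19 and -0.32 after quantile normalization, at -0.15, -0.12 and -0.25 after median centring and at -0.22, -0.20 and -0.28 after cyclic loess. MMP20 was uncalled without both E1 and E4 (0.75).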

Other observations

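Other genes of the same lists, named after their values were seen, also rose on day 28 of the escalating dose. MEPE and DMP1, phosphoproteins of bone and dentin, rose by 1.67 and 1.08 (limma, adjusted p 0.000596 and 0.00119). PRL, the pituitary hormone prolactin that drives milk production, rose from 3.60 ± 0.156 to 5.06 ± 0.305 (SD, n = 4; limma, adjusted p 0.000293). The neuropeptides VIP and NTS (neurotensin) rose by 1.42 and 1.24 (limma, adjusted p 0.000283 and 0.0014), and IAPP, the amylin that β-cells release with insulin, by 1.11 (limma, adjusted p 0.00569). All 6 were higher in 4 of 4 horses, and at the low dose they lay between -0.24 and -0.08 with none called.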
